A study of Homo sapiens with 4 samples.

Results

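The interferon regulatory factor (IRF) genes were read in BLaER1 cells after knockdown of the long non-coding RNA HAL7 and in control cells. Members were chosen by Ensembl gene ID, as the rows of the deposited expression table that belong to IRF1, IRF2, IRF3, IRF4, IRF5, IRF7, IRF8 and IRF9. That gave 8 genes of the 43450 in the table. Each passed the filter on low values, a mean of at least 1 FPKM over the 4 libraries, so 8 of 8 were tested. FPKM counts fragments per kilobase of transcript and scales them to the size of the library. It is a level per unit of transcript length, so that levels of different genes can be set side by side.

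BLaER1 derives from a human B cell leukaemia, and induction of its C/EBPα transgene converts the cells to a macrophage-like state. The HAL7 knockdown group (n = 2 libraries) received 3 LNA GapmeRs against HAL7, antisense oligonucleotides that direct RNase H to the RNA they bind, given through the culture medium with no transfection reagent. The control group (n = 2 libraries) consists of the same line in the same medium; its labels carry the same treatment text as those of the knockdown, and what it received in place of the GapmeRs is not given in the sources used here, nor is the duration of exposure or whether the transgene was induced. The labels do not say that the replicates were separate cultures, so p-values reflect only how far these libraries differ, possibly for technical reasons. All values come from 1 cell line.

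IRF proteins share a DNA-binding domain that recognises repeats of GAAA, found in the interferon-stimulated response elements of many antiviral genes. IRF3, IRF5 and IRF7 lie at the end of nucleic acid sensing pathways and switch on interferon and cytokine genes, IRF9 joins STAT proteins to carry the signal from interferon receptors, and IRF1 and IRF2 compete for the same sites as activator and antagonist. IRF4 and IRF8 are the lymphoid and myeloid members; they bind DNA weakly alone, pair with PU.1 or BATF, and guide B cell maturation and, for IRF8, monocyte and dendritic cell fate.

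No IRF gene passed the test for a change after HAL7 knockdown. IRF4 was higher in each knockdown library than in either control, at a ratio of mean levels of 1.19, and IRF1 and IRF9 stood lower, at ratios of 0.889 and 0.858. Of the 8 tested members, 0 had an adjusted p under 0.05 in limma, a linear model that pools information on the spread over all genes, where 4 of 12935 genes did (0.0309%), 0.00773% on the higher side and 0.0232% on the lower. The lowest adjusted p in the family was 0.20, for IRF4. At an unadjusted p under 0.05, limma gave 3 members, IRF4 on the higher side and IRF1 and IRF9 on the lower, where 16.6% of all tested genes reached it, 7.25% on the higher side and 9.35% on the lower. Without control replicate 1, 0 members reached it, where 6.94% of genes did, and without knockdown replicate 0 there were 4, where 18.3% of genes did.

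The 2 libraries of each group did not overlap in 7 of the 8 members, against 50.3% of all tested genes. Of these members, 6 were lower in knockdown libraries, where 27.7% of genes were, and 1 was higher, where 22.5% were. The median log2 change over the 8 members was -0.09, beside -0.01 over all tested genes. Log2 changes here are knockdown minus control on log2(FPKM + 1), a scale that understates the change of low genes.

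HAL7 itself (ENSG00000228427.1) was listed at 0.475 and 0.347 FPKM in knockdown replicates 0 and 1, against 0.726 and 0.613 FPKM in control replicates 0 and 1. Both knockdown values lay under both control values, with a limma adjusted p of 0.32, which is not past the threshold. Depth, recovered from the steps in which low FPKM values move, was lowest in control replicate 0; the other 3 libraries held 1.58 to 2.12 times its fragments. Control replicate 0 stood apart: its correlations with the other libraries over tested genes were 0.985 to 0.990, with 0.990 for the other control, while the other pairs had 0.993 to 0.995. Taking the longest annotated transcript as the length, the lowest HAL7 value rests on about 23.9 fragments. The thinnest value of any tested IRF gene, IRF5 in control replicate 0, rests on about 587. At that length the counting error of an IRF value was at most 4.13%, and at a shorter length it would be larger.

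In levels, IRF1 and IRF4 led the family and IRF5 was the lowest tested member, 17.7-fold below IRF1 over the mean of the 4 libraries. In knockdown libraries the order of mean levels was IRF4, IRF1, IRF2, IRF3, IRF9, IRF7, IRF8 and IRF5. The values of IRF4 and IRF1 overlapped there, as did those of IRF3 and IRF9, and the other neighbours in the order did not. In control libraries the order was IRF1, IRF4, IRF2, IRF9, IRF3, IRF7, IRF8 and IRF5, in which IRF2 and IRF9 overlapped, as did IRF9 and IRF3, and IRF1 lay above IRF4 without overlap. Summed over the family, the level was 200.02 and 200.95 FPKM in knockdown libraries and 203.11 and 205.61 FPKM in control libraries, of which IRF1 and IRF4 made up 51.1% and 52.7% in knockdown and 50.5% and 49.0% in control libraries. The plot of levels by library shows that IRF7, IRF8 and IRF5 took the lowest places in both groups and that the means of IRF1 and IRF4 stood in opposite order.

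**Figure D1:**
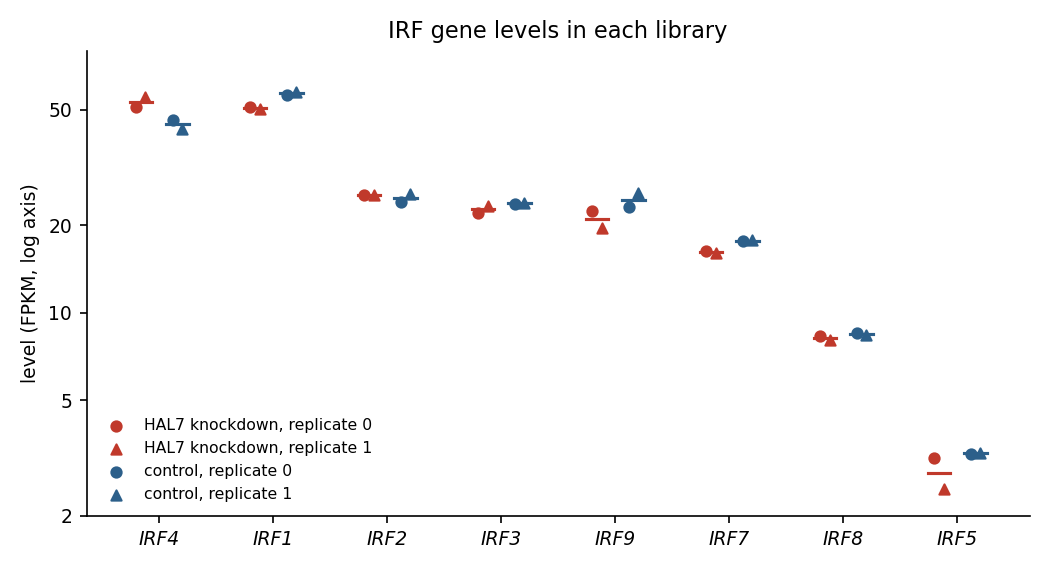
Level of each tested IRF gene in FPKM (log axis) in the 2 HAL7 knockdown libraries (red) and the 2 control libraries (blue); circles are replicate 0, triangles replicate 1 and bars the group means. IRF4 averaged 53.3 FPKM in knockdown and 44.6 FPKM in control libraries, while IRF1 averaged 50.7 and 57.0 FPKM.

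IRF1, an activator that interferon gamma induces and that drives MHC class I and guanylate-binding protein genes, had 51.1 and 50.3 FPKM in knockdown replicates 0 and 1, against 56.4 and 57.6 FPKM in control replicates 0 and 1. Both knockdown libraries were lower, and the gap of 5.31 FPKM between the nearest libraries exceeded the gaps of 0.861 FPKM between knockdown replicates and 1.149 FPKM between control replicates. The means were 50.7 ± 0.609 FPKM in knockdown and 57.0 ± 0.812 FPKM in control libraries (SD, n = 2 each), with a log2 change of -0.17 ± 0.05 (SE), a 95% interval of -0.28 to -0.05 and a limma adjusted p of 0.21. IRF1 (ENSG00000125347.8) lies on the minus strand of chromosome 5, from 132481609 to 132490798 in GENCODE 29 on GRCh38. The antisense gene IRF1-AS1 overlaps it by 7094 bases. Counting by strand is not stated, so reads of the pair may not have been told apart. IRF1-AS1 was listed at 9.78 and 7.13 FPKM in knockdown and at 9.35 and 9.56 FPKM in control libraries, which overlapped.

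IRF1 and IRF4 stood on opposite sides of the comparison, and their promoter stretches are shown for that reason. They were taken from RefSeq on GRCh38.p14, read 5′ to 3′ on the gene's strand, and end where the first annotated exon begins. Capitals mark a match to TTCNNNGAA, the gamma-activated site (GAS) that STAT dimers bind. IRF1 is chr5:132490799-132491023, minus strand, and IRF4 is chr6:391502-391738, plus strand.
IRF1: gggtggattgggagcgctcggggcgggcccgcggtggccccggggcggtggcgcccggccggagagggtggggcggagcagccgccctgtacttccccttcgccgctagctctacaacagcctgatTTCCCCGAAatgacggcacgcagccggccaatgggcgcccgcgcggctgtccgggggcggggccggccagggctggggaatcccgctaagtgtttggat
IRF4: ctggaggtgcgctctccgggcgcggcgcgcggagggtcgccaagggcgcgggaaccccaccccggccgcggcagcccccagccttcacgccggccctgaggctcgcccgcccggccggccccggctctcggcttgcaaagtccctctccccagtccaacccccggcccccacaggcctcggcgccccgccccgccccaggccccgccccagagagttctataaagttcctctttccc
The 250 bases before each RefSeq start were searched on both strands for that motif, for AANNGAAA, the IRF core, for the core of the interferon-stimulated response element, a pair of GAAA with NN between, and for the ETS-IRF composite, GGAA and GAAA with NN between, where PU.1 can pair with an IRF. The element core and the composite each contain the IRF core. Of 35116 promoters of that length, 6.57% held the GAS motif, 20.3% the IRF core, 3.02% the response element core and 2.41% the composite. IRF1 held 1 GAS match, at positions -124 to -116 from the start, and IRF4 held 0 matches to any of the 4 motifs.

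IRF2, the antagonist of IRF1 at shared sites, had 25.5 and 25.4 FPKM in knockdown replicates 0 and 1, against 24.1 and 25.7 FPKM in control replicates 0 and 1. The knockdown values lay between the control values, and IRF2 was the only tested member whose groups overlapped. Its log2 change was 0.03 ± 0.06 (SE), with a 95% interval of -0.10 to 0.17 and a limma adjusted p of 0.81. IRF2 (ENSG00000168310.5) lies on the minus strand of chromosome 4, from 184387713 to 184474580.

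The ratio of IRF1 to IRF2 within a library was 2.01 and 1.98 in knockdown replicates 0 and 1, against 2.34 and 2.24 in control replicates 0 and 1. Both knockdown ratios were lower, at 1.99 ± 0.0212 in knockdown and 2.29 ± 0.0683 in control libraries (SD, n = 2 each). An exact two-sided permutation test gave p = 0.333, the smallest that 2 libraries against 2 allow.

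IRF3, the constitutively made factor that TBK1 phosphorylates after DNA or RNA is sensed, had 22.1 and 23.4 FPKM in knockdown replicates 0 and 1, against 23.8 and 23.9 FPKM in control replicates 0 and 1. The knockdown libraries were lower by a gap of 0.343 FPKM, which is less than the 1.37 FPKM between them. The log2 change was -0.06 ± 0.06 (SE), with a 95% interval of -0.20 to 0.07 and a limma adjusted p of 0.60; it was -0.02 without knockdown replicate 0 and -0.11 without knockdown replicate 1. IRF3 (ENSG00000126456.10) lies on the minus strand of chromosome 19, from 49659569 to 49665875, and shares 734 bases with BCL2L12 on the other strand, so that reads there may be split between the genes.

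IRF7, which interferon induces and which widens the interferon alpha response, had 16.4 and 16.1 FPKM in knockdown replicates 0 and 1, against 17.6 and 17.8 FPKM in control replicates 0 and 1. Both knockdown libraries were lower, by a gap of 1.28 FPKM that exceeded the 0.308 FPKM between knockdown replicates and the 0.116 FPKM between control replicates. The means were 16.2 ± 0.218 FPKM in knockdown and 17.7 ± 0.0822 FPKM in control libraries (SD, n = 2 each), with a log2 change of -0.12 ± 0.05 (SE), a 95% interval of -0.25 to 0.01 and a limma adjusted p of 0.32. IRF7 (ENSG00000185507.14) lies on the minus strand of chromosome 11, from 612553 to 615999.

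IRF5, which acts below Toll-like receptors and MyD88 on inflammatory cytokine genes, had 3.17 and 2.46 FPKM in knockdown replicates 0 and 1, against 3.27 and 3.29 FPKM in control replicates 0 and 1. Knockdown replicate 1 was the low library, and knockdown replicate 0 lay only 0.102 FPKM under the controls. The log2 change was -0.17 ± 0.10 (SE), with a 95% interval of -0.42 to 0.08 and a limma adjusted p of 0.45; without knockdown replicate 1 it was -0.04, and without knockdown replicate 0 it was -0.30. IRF5 (ENSG00000128604.13) lies on the plus strand of chromosome 7, from 128937612 to 128950035. Of its 4 RefSeq starts, the third had a match to the ETS-IRF composite, inside the gene as positioned above and not upstream of it. It is shown as an example of the letters of that motif, and binding was not measured. The stretch is chr7:128940629-128940654 on the plus strand, with the match (reverse strand) in capitals.
IRF5: ctagccacTTTCGTTTCCcctggggc

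IRF4, a lymphoid factor that B cells need for light chain rearrangement and plasma cell formation, had 51.0 and 55.6 FPKM in knockdown replicates 0 and 1, against 46.1 and 43.2 FPKM in control replicates 0 and 1. It was the only tested member higher in both knockdown libraries, by a gap of 4.92 FPKM between the nearest libraries, beside 4.53 FPKM between knockdown replicates and 2.95 FPKM between control replicates. The means were 53.3 ± 3.21 FPKM in knockdown and 44.6 ± 2.09 FPKM in control libraries (SD, n = 2 each). The log2 change was 0.25 ± 0.06 (SE), with a 95% interval of 0.10 to 0.40 and a limma adjusted p of 0.20. IRF4 was the member of smallest p. Its log2 change lay within the central 95% of all tested genes, which ran from -0.30 to 0.27. IRF4 (ENSG00000137265.9) lies on the plus strand of chromosome 6, from 391739 to 411447.

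IRF8, which B cells and myeloid precursors share, had 8.33 and 8.05 FPKM in knockdown replicates 0 and 1, against 8.54 and 8.39 FPKM in control replicates 0 and 1. The groups did not overlap, but their gap of 0.0646 FPKM was smaller than the 0.278 FPKM between knockdown replicates. The log2 change was -0.04 ± 0.06 (SE), with a 95% interval of -0.19 to 0.10 and a limma adjusted p of 0.76. It was -0.06 without knockdown replicate 0, -0.02 without knockdown replicate 1 and -0.02 with the GC trend removed. IRF8 (ENSG00000140968.4) lies on the plus strand of chromosome 16, from 85898803 to 85922609. The 250 bases before its first listed RefSeq start held 2 matches to the IRF core. That stretch lies inside the gene as positioned above, not upstream of it. The matches are shown in capitals with 8 bases on either side, both printed on the plus strand. They are at chr16:85902706-85902729 and, with the match on the reverse strand, at chr16:85902801-85902824.
IRF8 first match: tctgcctgAAAGGAAAgggcagat
IRF8 second match: cacggagcTTTCAGTTtgcactca

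The ratio of IRF4 to IRF8 within a library was 6.13 and 6.90 in knockdown replicates 0 and 1, against 5.40 and 5.14 in control replicates 0 and 1. Both knockdown ratios were higher, at 6.51 ± 0.548 in knockdown and 5.27 ± 0.184 in control libraries (SD, n = 2 each). An exact two-sided permutation test again gave p = 0.333, the smallest possible here. The plot of both ratios shows that knockdown and control libraries did not overlap in either. For IRF4 to IRF8 this follows from the member values, with IRF4 higher and IRF8 lower in both knockdown libraries. The IRF1 to IRF2 ratio moved with IRF1. How often ratios of other gene pairs separate was not computed.

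**Figure D2:**
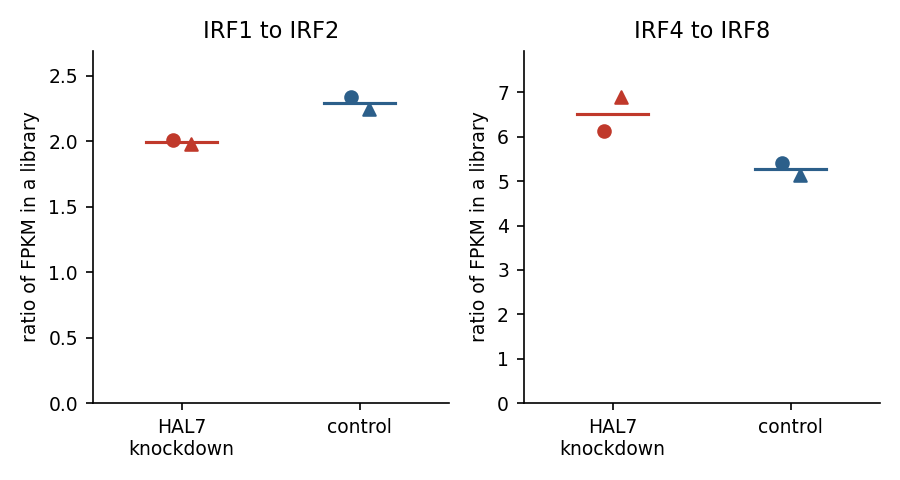
Ratio of FPKM within a library for IRF1 to IRF2 and for IRF4 to IRF8; circles are replicate 0, triangles replicate 1 and bars the group means, with HAL7 knockdown in red and control in blue. The IRF1 to IRF2 ratio averaged 1.99 in knockdown and 2.29 in control libraries, and the IRF4 to IRF8 ratio 6.51 and 5.27.

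IRF9, the DNA-binding subunit of the interferon-activated complex ISGF3, had 22.4 and 19.6 FPKM in knockdown replicates 0 and 1, against 23.2 and 25.9 FPKM in control replicates 0 and 1. Both knockdown libraries were lower, but the gap of 0.766 FPKM between the nearest libraries was smaller than the 2.79 FPKM between knockdown replicates and the 2.67 FPKM between control replicates. The means were 21.0 ± 1.97 FPKM in knockdown and 24.5 ± 1.89 FPKM in control libraries (SD, n = 2 each). The log2 change was -0.21 ± 0.08 (SE), with a 95% interval of -0.41 to -0.01 and a limma adjusted p of 0.28. The log2 change was -0.12 without knockdown replicate 1 and -0.14 without control replicate 1. IRF9 (ENSG00000213928.4) lies on the plus strand of chromosome 14, from 24161053 to 24166565. A same-strand gene listed at 0.634 to 0.814 FPKM overlaps its whole length, 5513 bases, so that reads may be split between them. The 250 bases before its RefSeq start held 1 GAS match and 1 IRF core match. Both lie inside the gene as positioned above, because that RefSeq start is downstream of the gene start given there. They are shown in capitals with 8 bases on either side, on the plus strand, at chr14:24161194-24161218 and chr14:24161222-24161245.
IRF9 GAS match: cacgtgatTTCTGGGAAaaggccct
IRF9 IRF core match: tggaggagAACTGAAActtagggt

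**Figure D3:**
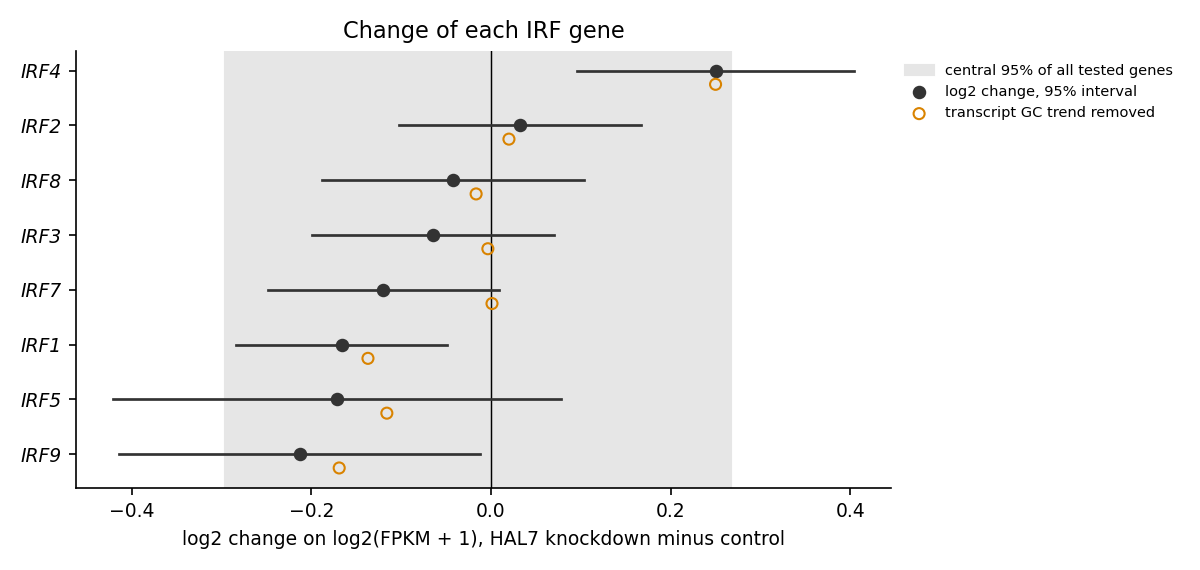
Log2 change of each tested IRF gene (HAL7 knockdown minus control on log2(FPKM + 1)) with its 95% interval from limma; open circles give the change after removal of the trend with transcript GC, and the grey band holds the central 95% of all tested genes. Intervals of 5 of the 8 members covered 0, and those of IRF4, IRF1 and IRF9 did not.

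Log2 changes moved with the base composition of transcripts across all genes. The Spearman rho between log2 change and transcript GC was -0.41 over 12499 genes, a description over genes that share the 4 libraries. Among genes of at least 65% GC the median log2 change was -0.13, and under 40% GC it was 0.06. IRF7, at 66.8% GC, was richer in GC than 98.4% of tested genes, and IRF3 and IRF5 followed at 59.0% and 57.7%. IRF1 had 52.6%, IRF4 47.1% and IRF2 45.4%.

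With the GC trend removed from each library, an alternative chosen after seeing the data, the log2 change of IRF7 was 0.0011, against -0.12 before, and that of IRF3 was -0.0035. The change of IRF4 was 0.25 as before, that of IRF1 -0.14, that of IRF9 -0.17 and that of IRF5 -0.12. The median over the 8 members was then -0.01, beside 0.0023 over all tested genes, and 2 members, IRF4 and IRF1, had an unadjusted limma p under 0.05, where 13.7% of genes did. The plot of log2 change against GC shows IRF2, IRF3, IRF7 and IRF8 close to the median of genes of like GC, IRF4 above it and IRF1, IRF5 and IRF9 below it.

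**Figure D4:**
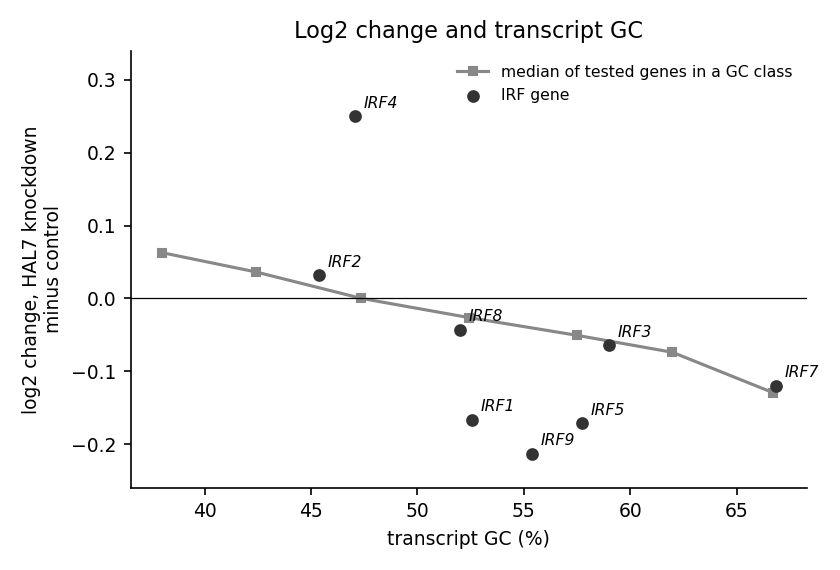
Log2 change (HAL7 knockdown minus control) against GC content of the longest annotated transcript for each tested IRF gene (black points); grey squares are medians over all tested genes in 7 classes of GC, placed at the median GC of the class. IRF7 at 66.8% GC lies beside the median of -0.13 of the most GC-rich class, and IRF4 at 0.25 lies above every class median.

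Around the factors, 7 lists of partners, activators, receptors, interferon genes and known targets held 157 distinct genes with an ID in the table, of which 115 were tested. In limma, 0 passed over all genes, and the lowest adjusted p was 0.15, for IFITM3. At an unadjusted p under 0.05, 22 lay on the lower side (19.1%) and 5 on the higher side (4.35%), where 9.35% and 7.25% of all tested genes did. The count of 27 in either direction depended on the libraries kept. Without either control library its share lay close to or under that of all genes, and without either knockdown library above it. The median log2 change was -0.06, beside -0.01 over all tested genes, and 72.2% of the 115 had a negative log2 change, beside 53.2% of all tested genes. Leaving out each library in turn, the median ran from -0.08 to -0.05, beside -0.015 to -0.0047 over all tested genes. Of the 115, 66.1% to 70.4% were then negative, beside 51.3% to 54.7% of all tested genes. With the GC trend removed the median was -0.04, beside 0.0023 over all tested genes. In that fit 21 of the 115 genes had an unadjusted limma p under 0.05, where 13.7% of all genes did.

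Partner and IRF-binding genes had a negative log2 change in 8 of 10, with a median of -0.10, and 0 passed. SPI1, which encodes PU.1, the partner of IRF4 and IRF8, had 47.2 and 46.7 FPKM in knockdown replicates 0 and 1, against 55.5 and 53.8 FPKM in control replicates 0 and 1. The groups did not overlap, and its log2 change was -0.21 ± 0.05 (SE), with a limma adjusted p of 0.19. SPI1 thus stood on the opposite side from IRF4. ETV6, an ETS-family repressor, and BATF, a basic leucine zipper partner of IRF4, stood at ratios of 0.857 and 0.888 with groups apart, and STAT2, the partner of IRF9, at 0.891 with overlap. The most abundant partners overlapped: TCF3, the E2A factor of B cells, averaged 180.0 and 188.6 FPKM in knockdown and control libraries, and IRF2BP2, an IRF2 co-repressor, 58.3 and 53.3 FPKM. Without knockdown replicate 0, 5 of the 10 were negative and the median was -0.01; without knockdown replicate 1 the median was -0.16.

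Genes of nucleic acid sensing and of IRF3, IRF5 and IRF7 activation had a negative log2 change in 13 of 19, with a median of -0.04, and 0 passed. SLC15A4, an endolysosomal transporter that scaffolds IRF5 activation, had 17.3 and 17.8 FPKM in knockdown libraries, against 14.6 and 15.5 FPKM in control libraries, and TASL, its adaptor and the most abundant gene of the list, had 256.4 and 272.1 FPKM, against 247.6 and 242.0 FPKM. Both were higher in both knockdown libraries, with limma adjusted p of 0.21 and 0.37. STING1, the adaptor of cytosolic DNA sensing, stood on the lower side at a ratio of 0.881, as did the kinase genes IKBKB and IRAK1 at 0.902 and 0.930. The list's median was 0.0057 without control replicate 0, 0.00069 with the GC trend removed and -0.06 without knockdown replicate 1, so its sign changed with these choices.

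Receptor and JAK-STAT genes were split, with 6 of 14 positive and 8 negative, a median of -0.03, and 0 past the test. IFNAR1, a chain of the type I interferon receptor, had 15.1 and 14.2 FPKM in knockdown libraries, against 12.6 and 11.5 FPKM in control libraries, a log2 change of 0.26 ± 0.07 (SE) with a limma adjusted p of 0.20. IFNGR1, a chain of the interferon gamma receptor, had 27.4 and 27.1 FPKM in knockdown, against 24.5 and 24.01 FPKM in control libraries. Both receptor genes were higher in both knockdown libraries, as was IFNAR2 at a ratio of 1.14. SOCS1, a feedback inhibitor of JAK kinases, was lower, with 1.97 and 2.10 FPKM in knockdown, against 2.43 and 2.81 FPKM in control libraries. The abundant TYK2, a JAK kinase gene, and PTPN2, a phosphatase gene, overlapped between groups at ratios of 0.970 and 0.986. The list's median was -0.0022 without knockdown replicate 1, -0.0077 without control replicate 1 and -0.05 without control replicate 0.

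The interferon genes themselves, some of which IRF3 and IRF7 switch on, were near absent in both groups. Of 21, 0 averaged 1 FPKM, 9 were listed at 0 in all 4 libraries, and their sum was 0.316 and 0.349 FPKM in knockdown libraries, against 0.307 and 0.499 FPKM in control libraries.

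Targets of IRF9 with STAT proteins had a negative log2 change in 30 of 39, with a median of -0.09, and 0 passed. At an unadjusted limma p under 0.05, 11 lay on the lower side and 1 on the higher, where 9.35% and 7.25% of all tested genes did. The count of 12 depended on the libraries kept. Its share fell under that of all tested genes without control replicate 0 and close to it without knockdown replicate 1. The share stayed above that of all tested genes without control replicate 1 or without knockdown replicate 0. With the GC trend removed the count was 9 of 39, where 13.7% of all tested genes reached that p. IFITM3, an antiviral membrane protein gene, had 13.1 and 13.0 FPKM in knockdown libraries, against 18.2 and 19.5 FPKM in control libraries, a log2 change of -0.50 ± 0.06 (SE). ISG15, a ubiquitin-like modifier, had 21.4 and 25.8 FPKM, against 28.8 and 28.7 FPKM, with knockdown replicate 0 the lowest. LGALS3BP, TRIM22, an antiviral ubiquitin ligase gene, and the abundant IFITM2 and IFITM1 stood at ratios of 0.883, 0.840, 0.875 and 0.926, all with groups apart. Without knockdown replicate 1 the median was -0.03 and 25 of 39 were negative, and without knockdown replicate 0 it was -0.13 with 32 negative. Without control replicate 0 or control replicate 1 it stayed at -0.09, with 28 and 29 negative. With the GC trend removed it was -0.08, with 29 negative.

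Targets of IRF1 had a negative log2 change in 17 of 22, where 53.2% of all tested genes did, with a median of -0.06, and 0 passed. At an unadjusted limma p under 0.05 there were 5, where 16.6% of all tested genes reached it. With the GC trend removed there were 3, where 13.7% did, and the median was -0.045. Leaving out each library in turn, the median ran from -0.09 to -0.07, with 15 to 20 of the 22 negative. The groups did not overlap in NLRC5, the transactivator of MHC class I genes, which had 52.8 and 48.2 FPKM in knockdown, against 57.9 and 57.8 FPKM in control libraries. TAP1, the peptide transporter chain, had 32.2 and 31.3 FPKM in knockdown, against 35.1 and 36.5 FPKM in control libraries, a log2 change of -0.17 ± 0.05 (SE) with a limma adjusted p of 0.23. HLA-C, the immunoproteasome gene PSMB10 and HLA-B stood at ratios of 0.863, 0.895 and 0.912 with groups apart. B2M, the light chain of MHC class I and the most abundant target, overlapped, at 2985 ± 60.8 FPKM in knockdown and 2923 ± 123 FPKM in control libraries (SD, n = 2 each).

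Of 14 tested targets of IRF4 and IRF8, 9 had a negative log2 change and 0 passed; their median was -0.07. IKZF1, which encodes Ikaros, a lymphoid factor that restrains pre-B cell growth, had 56.1 and 61.1 FPKM in knockdown, against 52.3 and 49.2 FPKM in control libraries, a log2 change of 0.20 ± 0.06 (SE) with a limma adjusted p of 0.22. It was higher in both knockdown libraries, on the same side as IRF4. CST3, the cystatin C gene, NCF1, an oxidase subunit gene, and CIITA, the MHC class II transactivator, stood at ratios of 0.810, 0.742 and 0.927 with groups apart; NCF1 has near-identical pseudogene copies that may share its reads. The abundant IGLL1, a surrogate light chain gene, and MYC overlapped between groups, at ratios of 0.996 and 1.10. The median was -0.05 when control replicate 0 was left out, and with the GC trend removed it was -0.02.

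**Figure D5:**
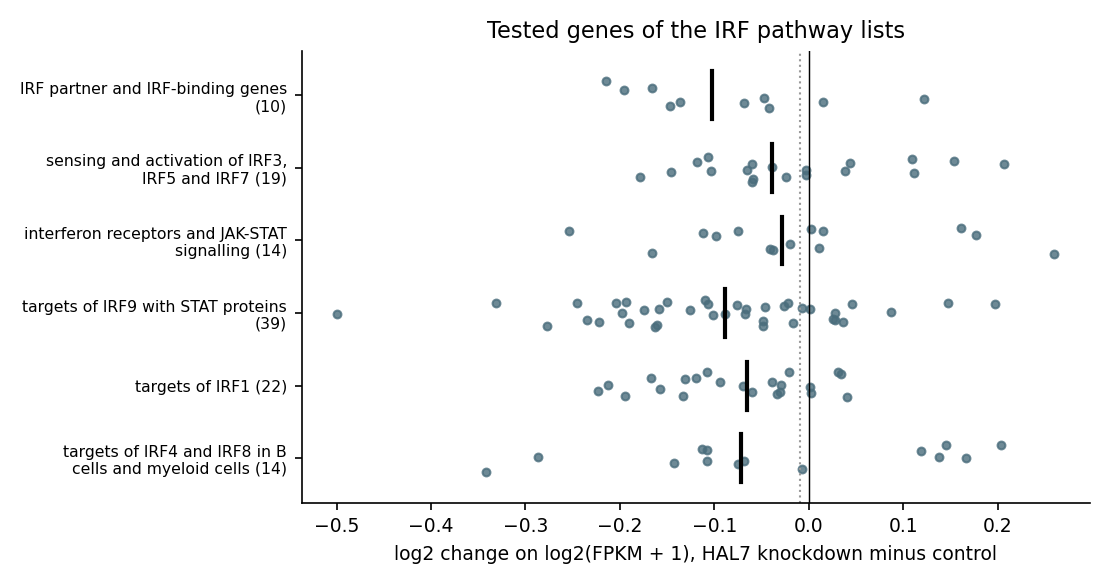
Log2 change (HAL7 knockdown minus control) of every tested gene in the IRF pathway lists, with the number tested in parentheses; points are genes, black bars list medians and the dotted line the median of all tested genes. The medians run from -0.10 for partner genes to -0.03 for receptor and JAK-STAT genes, and no gene passed the test.

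In bulk RNA, fewer cells of a type and less RNA per cell cannot be told apart. Of 14 listed B lineage markers, 13 were matched and all of these were tested, with DNTT and IGLL1 the most abundant. A negative log2 change was found in 11 of the 13, where 53.2% of all tested genes had one. At an unadjusted limma p under 0.05 lay 2 of the 13, the recombinase genes RAG1 and RAG2, where 16.6% of all tested genes did. The limma adjusted p of these 2 genes was 0.20 and 0.25. The summed level of the B lineage markers was 4372 to 4385 FPKM in knockdown and 4528 to 4537 FPKM in control libraries. Of 12 matched macrophage and monocyte markers, 2 were tested, CSF1R and CD68; FCGR3A, S100A8, S100A9 and MNDA were listed at 0 in every library, CD14 averaged 0.131 and 0.170 FPKM in knockdown and control libraries, and the summed level was 36.6 to 40.3 FPKM in knockdown and 38.5 to 39.5 FPKM in control libraries. T and NK cell markers had 2 of 10 tested, NKG7 and GZMA, with CD3D, CD3G and CD2 listed at 0, and a sum of 89.4 to 90.0 FPKM in knockdown and 90.7 to 94.96 FPKM in control libraries. Members stood on opposite sides: NKG7, a cytotoxic granule gene, averaged 19.5 FPKM in knockdown and 27.3 FPKM in control libraries, and GZMA, a granzyme gene, 70.0 and 65.3 FPKM, with limma adjusted p of 0.19 and 0.45. CD68, a lysosomal gene of macrophages, averaged 2.21 FPKM in knockdown and 2.97 FPKM in control libraries (limma adjusted p of 0.24), beside 35.9 and 35.6 FPKM for CSF1R. Plasmacytoid dendritic cell markers, a cell type known for high IRF7 and IRF8, had only TCF4, which B cells also express, above the filter, with IL3RA listed at 0, and a sum of 85.3 to 95.4 FPKM in knockdown and 95.6 to 100.6 FPKM in control libraries. Of 6 epithelial markers, 0 averaged 1 FPKM and 3 were listed at 0 in every library; their sum was 0.0465 to 0.0857 FPKM in knockdown and 0.0968 to 0.291 FPKM in control libraries. The part of these differences in the IRF values was not tested.

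Across the 4 libraries, the tested gene whose profile of log2(FPKM + 1), centred on its own mean, lay nearest to that of IRF4 was NDUFAF4, an assembly factor gene of respiratory complex I, at a distance of 0.00667. The nearest was UBALD2 for IRF1, at 0.00458, and POFUT2, a fucosyltransferase gene, for IRF9, at 0.0130. IFIT5, an interferon-induced gene, was the nearest to IRF2, PFKP, a phosphofructokinase gene, to IRF3, ARHGEF12 to IRF5, TMEM94 to IRF7 and CRK, an adaptor protein gene, to IRF8, at 0.00463, 0.00655, 0.0214, 0.00530 and 0.00454. With 4 libraries many profiles coincide. Within a distance of 0.05 lay 30 other genes for IRF4, 29 for IRF9 and 31 for IRF5. More lay that close to the rest: 210 for IRF1, 405 for IRF7, 423 for IRF2, 456 for IRF3 and 583 for IRF8.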

How the data were processed

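Per the labels, poly(A) RNA was sequenced with a TruSeq mRNA kit from 2 HAL7 knockdown and 2 control libraries of BLaER1. The deposited values, 1 per gene and library, were read as FPKM made by the authors, because the ID column has Cuffdiff's name and the values are not whole; the unit is not written in the table. Per the submitters' processing notes, the tools were Cuffdiff 2.2.1, TopHat2 2.0.14 and Bowtie2 2.2.5, and the build hg19; annotation, options and scaling are not stated. Values summed to 812554 to 853609 per library. In 1215 single-transcript genes of at least 2500 nt, 84.6% to 89.4% of low values of FPKM times length lay within 0.15 of whole multiples of 1 step (30% by chance), which gives the libraries' relative depth if the scaling left totals unchanged.

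Genes were named from Ensembl IDs through current symbols and GENCODE 29; positions are those of GRCh38, not of the authors' build. Of 212 list entries, 207 matched an ID. The comparison used limma 3.58.1 (R 4.3.3). Values entered as log2(FPKM + 1), HAL7 and every gene averaging 1 FPKM or more were kept, and the fit had a mean-variance trend, with p-values (two-sided) adjusted by Benjamini and Hochberg's method over all 12935 genes and called at 0.05; the fitting was tested on simulated data. Ratios within libraries had exact permutation tests in scipy 1.17.1. Alternatives were other pseudocounts, filters, scalings and thresholds, no variance trend, a replicate block, leaving out each library, and removal of the GC trend (lowess). Genes were named by rule: every IRF gene, the up to 4 listed genes of smallest p and the 2 most abundant per list, and the nearest profile; genes overlapping an IRF locus and markers listed at 0 were named besides. The members and lists were chosen with earlier results of these data known. IRF2, IRF3 and IRF7 had no promoter entry used here. Some items are not reported here.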

Additional observations from a re-analysis of the deposited data

How the results depend on the processing

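No IRF gene and no pathway gene passed an adjusted p of 0.05 under any alternative run; IRF adjusted p values ran from 0.13 to 0.99. At an adjusted p of 0.10 both counts were 0 too, and at an unadjusted p of 0.05 there were 3 IRF genes, 27 pathway genes and 2148 genes in all. Of 103 IRF log2 changes under alternatives, 101 kept their direction; IRF2 turned to -0.011 without control replicate 0 (-0.011 to 0.075 leaving out each library) and IRF7 to 0.0011 with the GC trend removed. IRF5 was not tested at a mean of at least 5 FPKM. The count of all called genes was 4; it was 2 with a pseudocount of 0.1, 0 with no filter (3002 genes at an unadjusted p under 0.05), 1 with a mean of at least 5 FPKM, 5 with the GC trend removed, and 11 to 22 with a library left out, where the spread of a lone library was taken from the other group. The labels do not say what replicate numbers share, and same-numbered deviations correlated at 0.12 over genes; with the replicate number as a block 19 genes were called, 0 of them IRF genes. The IRF1 to IRF2 ratio differed by -0.30 (-0.35 to -0.25 leaving out each library) and the IRF4 to IRF8 ratio by 1.24 (0.856 to 1.63). Depth limits HAL7 more than any tested IRF gene.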
